A study of Mus musculus with 9 samples.

Results

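The genes described here are 10 activation-induced transcription factors: the zinc finger factors Egr1, Egr2 and Egr3, the AP-1 genes Fos, Fosb, Jun, Junb, Jund and Batf, and the orphan nuclear receptor Nr4a1. They were chosen by name, by matching their symbols to the Ensembl IDs of the count tables, and are 10 of the 48795 gene rows. Of the 10, 9 had enough reads to be tested and Fosb did not. The cells were follicular B cells, the main resting B cells of the spleen, taken by CD23 selection from C57BL/6 mice with loxP-flanked (floxed) Yy1 alleles. The product, YY1, is a transcription factor. In the tatcre group TAT-CRE, a Cre recombinase that enters cells, was applied to delete Yy1, and the mock group carried the same floxed alleles and received a mock treatment. Both groups were then activated in culture by LPS plus IL-4. The series text gives 72 hours with 10% serum, while the sample text gives 48 hours with 20% serum and lists TAT-CRE for every sample, so the groups follow the titles. Each group has 3 RNA libraries. Spleens of 3 mice were divided over the treatments, but the labels do not tie a library to a mouse, so the p-values cover only how these libraries vary, which may be technical. No untreated cells were among the RNA libraries, so no level before activation is given here. Exposure to the recombinase and loss of Yy1 cannot be told apart in this design.

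Early response genes are transcribed within minutes of a stimulus, without new protein synthesis, and most of their transcripts then decay quickly. Signals from antigen or Toll-like receptors reach them through the ERK, JNK and p38 kinases and calcineurin, which act on SRF with its ETS partners, on CREB and on MEF2 factors bound near their promoters. EGR proteins bind GC-rich sites and are held in check by the NAB corepressors. AP-1 is a dimer of a Jun protein with a Fos, ATF or BATF protein. BATF pairs with Jun proteins and with IRF4 or IRF8, and in B cells it is needed for class switching. NR4A1 is a widely used reporter of antigen receptor signalling and restrains B cell responses. The cultures here were sampled after days, so the values describe late levels in activated cells and not the first peak.

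Total gene counts per library ranged from 22729187 to 28230727. Yy1 stood at 107 ± 5.89 CPM (counts scaled to a common library size after TMM normalization) in mock and 1.5 ± 0.51 CPM in tatcre libraries (SD, n = 3 each). The B cell genes Cd79a, Ms4a1 and Pax5 were present in every library. Most defining T cell and myeloid genes were at or near 0: Cd3d and Lyz2 had at most 1 count in any library, Cd14 and S100a8 had 0, and Csf1r had 1 to 31 counts. Of the 8 macrophage and monocyte markers 3 never exceeded 3 counts, and the summed list stood at 48.1 to 51.6 CPM in mock and 30.6 to 33.4 CPM in tatcre libraries, nearly all of it Cd68 and Mpeg1. The part of these sums in the results was not tested. The library tatcre 2 stood apart for the genes described here: it was the lowest of the 3 tatcre libraries for 9 of 9 tested genes, whereas it was the lowest for 41.5% of all tested genes. Likewise mock 3 was the lowest mock library for 7 of 9, against 37.5% of all tested genes. The part of these libraries in each result is given where it changes it.

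In tatcre against mock cells, the early response genes did not move as a block. Egr2, Egr3, Batf and Junb fell, Jun rose, and Egr1, Fos, Jund and Nr4a1 did not pass the test (edgeR quasi-likelihood test, Benjamini-Hochberg adjusted over all 15546 tested genes, threshold 0.05). Thus 4 of the 9 tested genes fell and 1 rose, where 16.3% of all tested genes fell and 10.8% rose (27.1% called in either direction). Over all genes 2536 fell and 1679 rose; with upper-quartile factors these were 2097 and 2229, and with library size alone 1894 and 2614. Leaving out mock 2 or tatcre 1 lowered the rises over all genes to 998 and 1002. The median log2 fold change of the 9 was -0.05, that of all tested genes 0.02. Mock and tatcre values did not overlap for 5 of the 9, the same 5 that were called, and 44% of all tested genes did not overlap. Without tatcre 2 the counts were 4 lower and 2 higher, and without mock 3 they were 4 lower and 1 higher. A lower value in a bulk library can mean fewer cells with the transcript or less of it per cell, and these cannot be told apart.

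**Figure D1:**
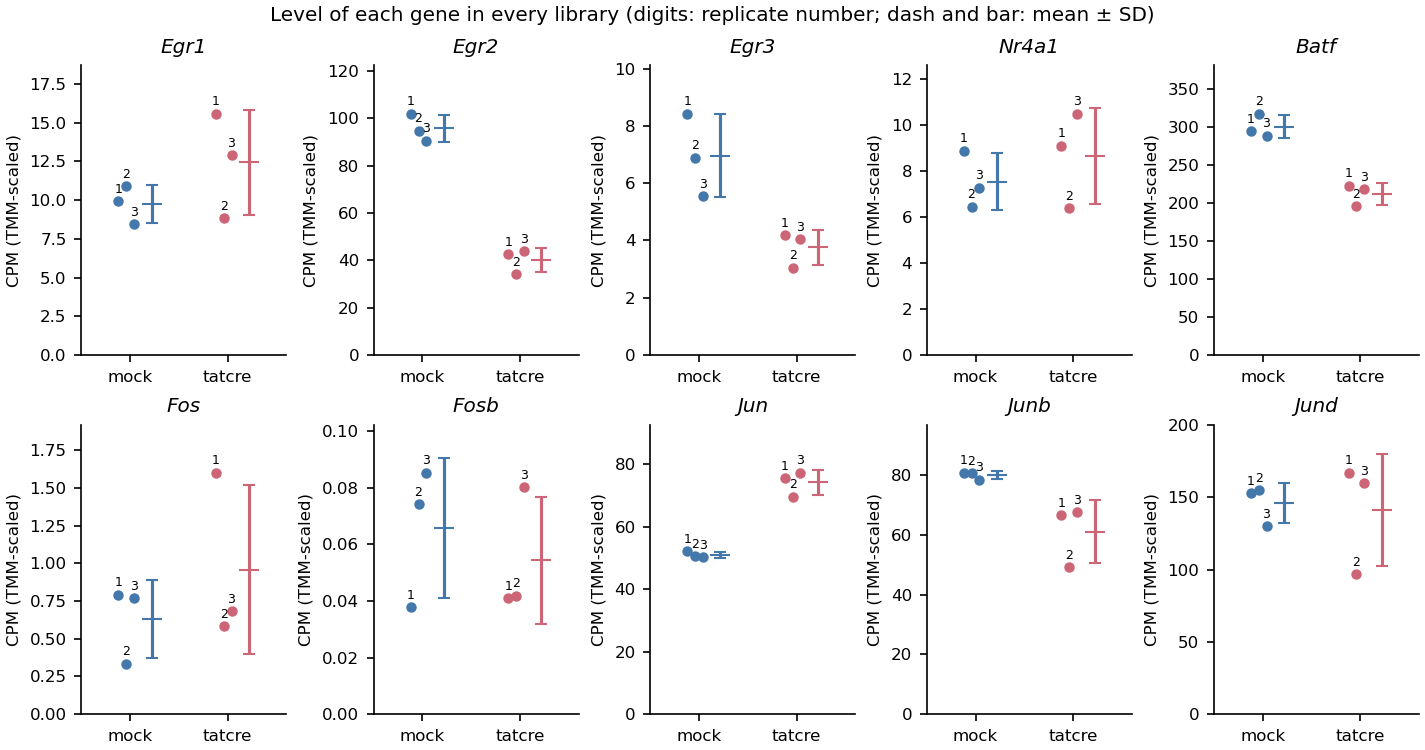
TMM-scaled CPM (vertical axis, from 0) of each early response gene in the mock and tatcre libraries; points are libraries with their replicate number, the dash and bar are mean ± SD (n = 3). Egr2, Egr3, Batf and Junb lie lower in every tatcre than in every mock library, Jun lies higher in every tatcre library, and tatcre 2 is the lowest tatcre point for all genes but Fosb.

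Egr2 gave the largest change of the 10 genes. EGR2 regulates lymphocyte activation and limits autoreactive responses. Egr2 (ENSMUSG00000037868) lies on chromosome 10 at 67534469 to 67542188 of GRCm38, the build of all positions given here. It had 2697, 2555 and 2128 counts in the mock and 1039, 816 and 1091 counts in the tatcre libraries. In scaled units these were 102, 94.7 and 90.6 CPM against 42.6, 34.1 and 43.7 CPM. All tatcre libraries lay far below the lowest mock library. The group means were 95.7 ± 5.72 and 40.1 ± 5.28 CPM (SD, n = 3 each), a log2 fold change of -1.25 (SE 0.11, 95% interval -1.49 to -1.02, edgeR adjusted p = 1.75e-05). Under the alternatives run the log2 fold change stayed between -1.33 and -1.15.

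Egr3, a close relative with overlapping roles in lymphocytes, fell from a much lower count level. Egr3 (ENSMUSG00000033730, chromosome 14, 70077317 to 70082613) had 8.43, 6.89 and 5.54 CPM in mock and 4.18, 3.05 and 4.05 CPM in tatcre libraries. The groups did not overlap, although mock 3 and tatcre 1 were close. The log2 fold change was -0.89 (SE 0.21, 95% interval -1.34 to -0.43, edgeR adjusted p = 0.00891).

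Egr1, the founding member of the family and a common marker of ERK signalling, did not fall with its relatives. Egr1 (ENSMUSG00000038418, chromosome 18, 34861207 to 34864956) had 9.94, 10.9 and 8.47 CPM in mock and 15.6, 8.85 and 12.9 CPM in tatcre libraries. Of these, tatcre 1 and tatcre 3 lay above every mock library, while tatcre 2 lay within the mock range. The log2 fold change was 0.35 (95% interval -0.07 to 0.77, edgeR adjusted p = 0.202). Without tatcre 2 it was 0.54 and passed the test (edgeR adjusted p = 0.0218), so this library decides the call. The change of Egr1 was in no alternative negative, with a range of 0.14 (without tatcre 1) to 0.54.

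The difference between Egr2 and Egr1 was examined as a ratio of counts within each library, which needs no scaling between libraries. This and the other ratios and shares of reads were chosen after the values had been seen. Per Egr1 read there were 10.3, 8.69 and 10.7 Egr2 reads in mock and 2.73, 3.85 and 3.39 in tatcre libraries, so the groups did not overlap. Egr2 took 85.2 ± 1.27% of all reads on the 3 EGR genes in mock and 71.5 ± 2.97% in tatcre cells, Egr1 took 8.68 ± 0.873% and 21.9 ± 2.93% (SD, n = 3 each). The share of Egr3 overlapped between the groups, at 6.14 ± 0.858% and 6.67 ± 0.0358%. Summed over the 3 genes the level went from 112 ± 7.82 to 56.4 ± 9.03 CPM. Of 12 such shares and ratios 10 gave an exact two-sided permutation p of 0.1, the smallest that 3 against 3 libraries allow, with a Benjamini-Hochberg adjusted p of 0.12. The design therefore cannot reach 0.05 for them.

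The promoter windows of RefSeq (GRCm38.p6) were cut to the 250 bases before each annotated start. Windows of 8 of the 10 genes were searched (12 windows, 5 of them for Egr2). No window of Egr1 or Egr3 was searched, so whether these genes hold the sites below was not tested. A CArG box, the site that SRF binds, was found in Egr2 windows and in no window of the other 7 genes searched. Of all 32851 windows 1.47% hold one. The box is therefore not shown to be particular to Egr2 among the EGR genes. Of the 4 Egr2 windows with a box, 3 overlap and hold the same box, so these are 2 distinct boxes. They are shown because Egr2 fell most and because Srf is among the factors described below. A link between the boxes, Srf and the level of Egr2 was not tested. Sites outside the 250 bases were not searched for any gene. Each box is printed with 10 bases on either side, 5′ to 3′ on the plus strand, with the box in capitals. The upstream stretch lies at chr10:67537484-67537513 and the downstream one at chr10:67537787-67537816.

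Egr2 upstream: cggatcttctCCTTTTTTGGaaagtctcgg

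Egr2 downstream: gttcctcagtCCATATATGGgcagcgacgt

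The letters TGACG, a shortened cAMP response element that CREB and ATF proteins bind, were searched on either strand. They were found in windows of 6 of the 8 genes (Egr2, Fos, Fosb, Junb, Batf and Nr4a1). Counted by window this was 8 of 12, against 17.8% of all windows, and the 8 include overlapping Egr2 windows that share the same sites. The full element TGACGTCA, the AP-1 site TGANTCA and the letters AANATGGC, a core of the YY1 motif, were in none of the 12 windows. They were in 1.55%, 6.75% and 3.91% of all windows. At such shares none in 12 windows is a likely count, and bases after the start were not searched. The result therefore does not show that these genes lack such sites. TGACG is part of TGACGTCA, and both strands were searched for each. The EGR site GCGNGGGCG was in the windows of Fosb and Nr4a1 and in 4.7% of all windows. These matches describe letters in a short window and not binding.

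Among the AP-1 genes, Batf had the most reads and fell. Batf (ENSMUSG00000034266, chromosome 12, 85686720 to 85709087) had 295, 318 and 289 CPM in mock and 223, 196 and 218 CPM in tatcre libraries. All tatcre libraries lay below all mock libraries, with a spread within each group that was small beside the gap. The means were 301 ± 15.5 and 212 ± 14.4 CPM (SD, n = 3 each), a log2 fold change of -0.5 (SE 0.08, 95% interval -0.68 to -0.33, edgeR adjusted p = 0.00101).

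Jun and Junb moved in opposite directions. JUN is the classical activating partner in AP-1, and JUNB, its relative, often opposes it and is itself induced by activation. Jun (ENSMUSG00000052684, chromosome 4, 95049036 to 95052222) had 52.2, 50.6 and 50.3 CPM in mock and 75.6, 69.7 and 77.3 CPM in tatcre libraries. The lowest tatcre library was well above the highest mock library. The log2 fold change was 0.54 (SE 0.08, 95% interval 0.36 to 0.72, edgeR adjusted p = 0.000652), and it lay between 0.5 and 0.64 under the alternatives.

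Junb (ENSMUSG00000052837, chromosome 8, 84976909 to 84978748) had 80.7, 80.5 and 78.4 CPM in mock and 66.5, 49.1 and 67.6 CPM in tatcre libraries. The groups did not overlap, and tatcre 2 lay apart from the other tatcre libraries. The log2 fold change was -0.39 (SE 0.12, 95% interval -0.64 to -0.13, edgeR adjusted p = 0.0295). This call was lost without mock 1 (edgeR adjusted p = 0.0607), without mock 2 (edgeR adjusted p = 0.0803) and with library size alone as scaling (-0.28 on the log2 scale, edgeR adjusted p = 0.0785). Without tatcre 2 the fall was smaller, at -0.25 on the log2 scale, and still passed (edgeR adjusted p = 0.0419).

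Within a library there were 1.55, 1.59 and 1.56 Junb reads per Jun read in mock and 0.88, 0.705 and 0.875 in tatcre cells. Reads on Junb thus outnumbered those on Jun in every mock library and in no tatcre library. Jun and Junb have no introns, so the RefSeq gene length of 3187 and 1840 bases can stand for the transcript length. Per kilobase, the Junb level was 43.4 ± 0.717 CPM per kilobase in mock and 33.2 ± 5.63 in tatcre cells, and the Jun level 16 ± 0.314 and 23.3 ± 1.25 CPM per kilobase (SD, n = 3 each). On this scale Junb stayed above Jun in all libraries, from 42.6 to 43.9 against 15.8 to 16.4 in mock and from 26.7 to 36.8 against 21.9 to 24.3 in tatcre libraries. Transcript lengths of the other genes were not used here, so their levels are not ranked against each other. Batf reads per Jun read went from 5.65, 6.29 and 5.74 in mock to 2.95, 2.81 and 2.82 in tatcre libraries, again without overlap.

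The 250 bases before the starts of Jun and Junb are printed because these relatives moved in opposite directions. The Jun window is chr4:95052223-95052472 and the Junb window chr8:84978749-84978998, both 5′ to 3′ on the minus strand of GRCm38.p6. Capitals mark the letters TGACATCA in Jun, a variant AP-1 site, 38 bases before the start, and TGACG in Junb, 102 bases before it. TGACATCA was in 2.93% of all windows and in no window of the other 7 genes.

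Jun: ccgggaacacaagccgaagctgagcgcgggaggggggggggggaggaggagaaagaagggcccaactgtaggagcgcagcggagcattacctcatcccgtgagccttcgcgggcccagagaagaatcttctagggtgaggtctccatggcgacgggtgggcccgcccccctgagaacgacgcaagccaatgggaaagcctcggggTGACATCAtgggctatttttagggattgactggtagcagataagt

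Junb: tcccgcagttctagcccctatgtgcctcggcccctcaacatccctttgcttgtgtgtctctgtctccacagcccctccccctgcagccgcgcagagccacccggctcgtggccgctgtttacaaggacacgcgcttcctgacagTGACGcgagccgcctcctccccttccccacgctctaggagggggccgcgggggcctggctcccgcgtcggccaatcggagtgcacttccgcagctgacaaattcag

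Jund, the Jun gene that resting cells already express, was not called. Jund (ENSMUSG00000071076, chromosome 8, 70697739 to 70700616) had 153, 155 and 130 CPM in mock and 167, 96.8 and 160 CPM in tatcre libraries. The library tatcre 2 lay below all mock libraries and the other tatcre libraries above them. The log2 fold change was -0.05 (95% interval -0.42 to 0.33, edgeR adjusted p = 0.861), and 0.17 without tatcre 2 (edgeR adjusted p = 0.238). Jun took 18.5 ± 0.928% of the reads on the 3 Jun genes in mock and 27.4 ± 4.32% in tatcre cells, and Junb 28.9 ± 1.23% and 22.2 ± 0.644% (SD, n = 3 each). Summed, the 3 genes gave 277 ± 15.9 CPM in the mock libraries and 277 ± 52.9 CPM in the tatcre libraries.

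**Figure D2:**
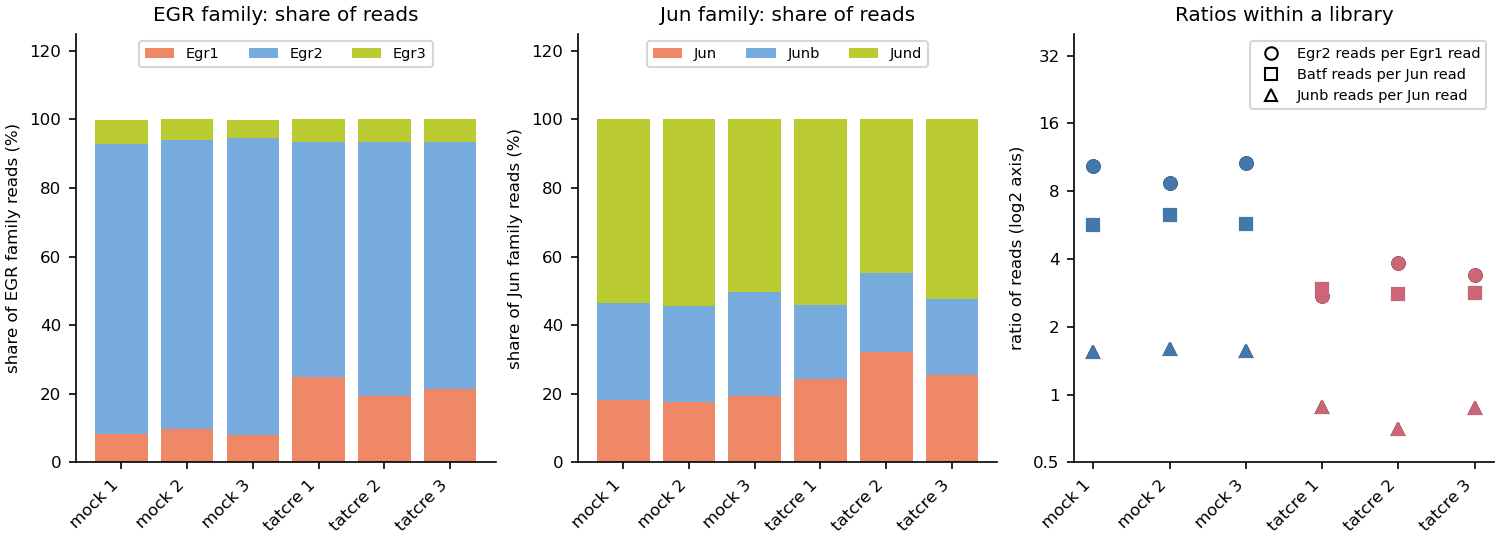
Left and middle, share of reads (%) on each EGR and Jun gene in every library; right, ratios of reads within a library on a log2 axis (mock blue, tatcre red). Junb reads per Jun read lie between 1.55 and 1.59 in mock and between 0.705 and 0.88 in tatcre libraries, and Egr2 reads per Egr1 read between 8.69 and 10.7 and between 2.73 and 3.85.

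The Fos genes were almost silent at the time of sampling. FOS and FOSB need a Jun partner to bind DNA, and their transcripts are among the most short-lived. Fos (ENSMUSG00000021250, chromosome 12, 85473890 to 85477274) had 21, 9 and 18 counts in mock and 39, 14 and 17 counts in tatcre libraries. The high value of tatcre 1 sets the direction: the log2 fold change was 0.6 (95% interval -0.65 to 1.85, edgeR adjusted p = 0.457) and -0.01 without tatcre 1. Fosb (ENSMUSG00000003545, chromosome 7, 19302696 to 19310118) had 1 or 2 counts in every library, below the 3 counts that a count of 0 allows, and no fold is given. Fos was thus tested and not called, and a difference in Fosb was not detectable at this depth.

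Nr4a1 was low and not called. Nr4a1 (ENSMUSG00000023034, chromosome 15, 101253902 to 101274795) had 8.88, 6.45 and 7.28 CPM in mock and 9.1, 6.39 and 10.5 CPM in tatcre libraries, which overlap. The log2 fold change was 0.2 (95% interval -0.23 to 0.63, edgeR adjusted p = 0.47). Single libraries moved this value: it was 0.38 without tatcre 2, 0.33 without mock 1, 0.09 without mock 2 and 0.03 without tatcre 3, and it passed the test in none of these. Its relative Nr4a2 rose from a few reads, with 6, 7 and 12 counts in mock and 28, 40 and 27 counts in tatcre libraries (log2 fold change 1.96, SE 0.52, edgeR adjusted p = 0.0167). The rise of Nr4a2 was lost without mock 1, mock 2, tatcre 1 or tatcre 2, with edgeR adjusted p-values of 0.0506, 0.0794, 0.0512 and 0.0625. Mock cells held 2.51 ± 0.479 CPM of Nr4a3 and tatcre cells 3.3 ± 0.766 CPM, which did not pass the test (edgeR adjusted p = 0.301).

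Other AP-1 genes were called in both directions. Of 13 tested AP-1 relatives 4 fell, 2 rose and 7 were not called (all tested genes: 16.3% fell, 10.8% rose). The median log2 fold change was -0.09, that of all tested genes 0.02. Jdp2, which encodes a repressive Jun dimerization partner, went from 13.1 ± 2.01 to 4.53 ± 0.621 CPM (log2 fold change -1.53, edgeR adjusted p = 8.49e-05). Atf3, a stress-induced partner of Jun, went from 33.5 ± 2.04 to 13.6 ± 0.96 CPM (log2 fold change -1.3, edgeR adjusted p = 1.12e-05). Batf3, the relative of Batf, went from 7 ± 0.902 to 2.65 ± 1.12 CPM (log2 fold change -1.4, edgeR adjusted p = 0.00282). It was named after its values were seen, as were Srf, Braf, Araf, Map2k1, Map2k2, Spred2, Rasa1, Ier2 and Ier3 below. Bach2, a B cell repressor that binds AP-1-like sites, fell from 66.1 ± 3.55 to 46.4 ± 3.25 CPM, while Bach1 (8.82 ± 0.834 to 13.5 ± 2.95 CPM) and Mafg (14.4 ± 0.384 to 18.8 ± 1.71 CPM) rose. The rise of Bach1 was lost without mock 2 or tatcre 2 (edgeR adjusted p = 0.0848 and 0.051). That of Mafg was lost without mock 2, mock 3 or tatcre 3 and with a replicate block (edgeR adjusted p = 0.07, 0.0732, 0.0878 and 0.0539).

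Of 7 tested EGR relatives and cofactors 1 fell, 1 rose and 5 were not called (all tested genes: 16.3% fell, 10.8% rose). The median log2 fold change was 0.18. Nab2, the EGR corepressor that EGR proteins themselves induce, went from 12.7 ± 1.53 to 9.33 ± 1.39 CPM (log2 fold change -0.45, edgeR adjusted p = 0.045). The call of Nab2 was lost without any of the libraries but tatcre 3, with DESeq2 and with 2 of the other scalings (adjusted p from 0.0515 to 0.139). Klf10, a TGF-beta-induced factor, went from 3.38 ± 0.52 to 5.42 ± 0.199 CPM (log2 fold change 0.68, edgeR adjusted p = 0.0218), a call lost without mock 2, mock 3 or tatcre 1 (edgeR adjusted p = 0.0718, 0.0852 and 0.0583). No read of Egr4 was counted in any library, so its level is limited only to at most 0.128 CPM.

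**Figure D3:**
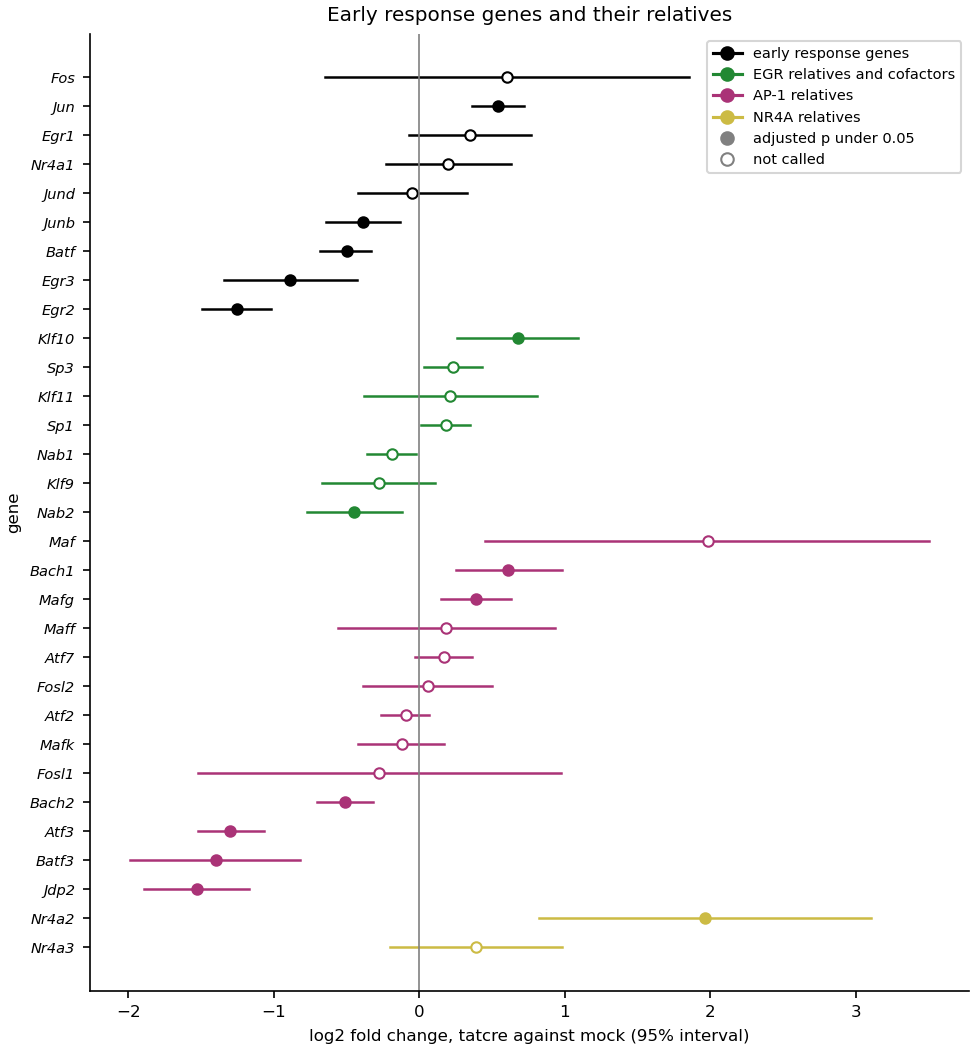
Log2 fold change, tatcre against mock, with 95% intervals for the tested early response genes and their EGR, AP-1 and NR4A relatives; filled points passed the test. Egr2 (-1.25) and Jun (0.54) mark the lowest and highest called early response genes, and Jdp2, Batf3 and Atf3 lie lower than Egr2.

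Kinase and transcription factor genes that act upstream were examined as lists. In the Ras and ERK cascade 10 of 24 tested genes fell, none rose and 14 were not called (all tested genes: 16.3% fell, 10.8% rose). The median log2 fold change was -0.11. Mapk3, which encodes the kinase ERK1, fell from 27.4 ± 4.34 to 11.7 ± 1.17 CPM (log2 fold change -1.23, edgeR adjusted p = 9.5e-05). Braf, Araf and Map2k1, which encodes a MEK kinase, were also called lower (log2 fold changes -0.66, -0.58 and -0.56). The other MEK gene Map2k2 did not pass the test, with a change of -0.01 on the log2 scale (edgeR adjusted p = 0.96). The called falls also included genes of inhibitors of the cascade, Spred2 and Rasa1. Their log2 fold changes were -0.64 and -0.28 (edgeR adjusted p = 0.00435 and 0.0434). The falls thus cover genes that activate and genes that restrain the cascade, and its activity was not tested.

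In the JNK and p38 cascades 4 of 17 tested genes fell, 4 rose and 9 were not called (all tested genes: 16.3% fell, 10.8% rose). The median was 0.16. The JNK gene Mapk8 rose from 73 ± 1.81 to 94 ± 2.73 CPM (log2 fold change 0.37, edgeR adjusted p = 0.00449). Its activating kinase genes moved apart: Map2k7 rose (34.4 ± 0.904 to 44.4 ± 3.6 CPM) and Map2k4 fell (114 ± 4.47 to 85.2 ± 3.4 CPM). Further upstream, Map3k7, which encodes TAK1, rose from 121 ± 13 to 161 ± 6.83 CPM, and Map3k4 fell from 29.7 ± 1.37 to 11.8 ± 1.8 CPM. The p38 target kinase gene Mapkapk2 fell, with a log2 fold change of -0.43.

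Of 10 tested SRF, ETS and CREB factor genes 5 fell, 3 rose and 2 were not called (all tested genes: 16.3% fell, 10.8% rose). The median was -0.08. Srf itself went from 118 ± 13.9 to 90.8 ± 12.8 CPM (log2 fold change -0.37, edgeR adjusted p = 0.0366), a call lost without mock 2, tatcre 1 or tatcre 2 (edgeR adjusted p = 0.137, 0.0852 and 0.0944). It was also lost with upper-quartile factors, with library size alone and with a replicate block (edgeR adjusted p = 0.0556, 0.0918 and 0.0793). Creb1, Ets1 and Elk3 fell (log2 fold changes -0.33, -0.36 and -0.5). Crem, whose products include repressors of CREB sites, rose from 124 ± 14.1 to 209 ± 33.9 CPM (log2 fold change 0.76, edgeR adjusted p = 0.00126), and the ETS partner Elk4 and the SRF coactivator Mrtfb rose by 0.47 and 0.5 on the log2 scale.

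In the calcineurin, NFAT and MEF2 list 4 of 11 tested genes rose, 1 fell and 6 were not called (all tested genes: 10.8% rose, 16.3% fell). The median was 0.19. Rcan1, an inhibitor of calcineurin that NFAT induces, rose from 5.94 ± 0.357 to 12.7 ± 0.934 CPM (log2 fold change 1.1, edgeR adjusted p = 0.000149). Mef2a and Mef2d rose by 0.49 and 0.46 on the log2 scale, and Hdac7, a deacetylase that represses MEF2 targets, fell from 99.8 ± 13.6 to 68.7 ± 9.32 CPM.

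Of 23 tested other immediate early genes 5 fell, none rose and 18 were not called (all tested genes: 16.3% fell, 10.8% rose). The median was -0.17. The falls with the smallest p were those of Zfp36l1, an mRNA decay factor (616 ± 26.7 to 411 ± 31.6 CPM), Gadd45b (16 ± 1.74 to 9.32 ± 1.5 CPM) and Ppp1r15a, a phosphatase subunit of the stress response (34.7 ± 2 to 21.9 ± 4.03 CPM). The lowest fold change among them was that of Ier3, a survival factor gene, from 3.42 ± 0.577 to 1.43 ± 0.536 CPM (log2 fold change -1.25, edgeR adjusted p = 0.0143), a call lost without mock 1 (edgeR adjusted p = 0.0511). Ier2, an immediate early gene induced with Fos and Egr1, stood at 19.6 ± 1.69 and 18 ± 2.45 CPM and was not called.

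Genes known as EGR targets in lymphocytes gave 1 fall and 2 rises among 9 (all tested genes: 16.3% fell, 10.8% rose). The median was -0.04. Ndrg1 fell from 13.6 ± 2.19 to 3.75 ± 0.0623 CPM (log2 fold change -1.85, edgeR adjusted p = 1.82e-05). Cdkn1a, the gene of a brake on the cell cycle, rose by 1.23 on the log2 scale, and Socs3, a cytokine signalling inhibitor, rose by 0.45 (edgeR adjusted p = 0.0213). The rise of Socs3 was lost without mock 1, mock 3, tatcre 1 or tatcre 3 and with a replicate block (edgeR adjusted p from 0.0561 to 0.0798). Of 3 tested BATF partners and linked genes 3 fell (all tested genes: 16.3% fell, 10.8% rose). The partner genes among them were Irf4, from 441 ± 19.8 to 327 ± 11.7 CPM, and Irf8, from 296 ± 9.53 to 242 ± 25.7 CPM. The call of Irf8 (edgeR adjusted p = 0.0334) was lost without mock 1, mock 2, tatcre 1 or tatcre 2, with upper-quartile factors, with library size alone and with a replicate block (edgeR adjusted p from 0.0571 to 0.116).

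**Figure D4:**
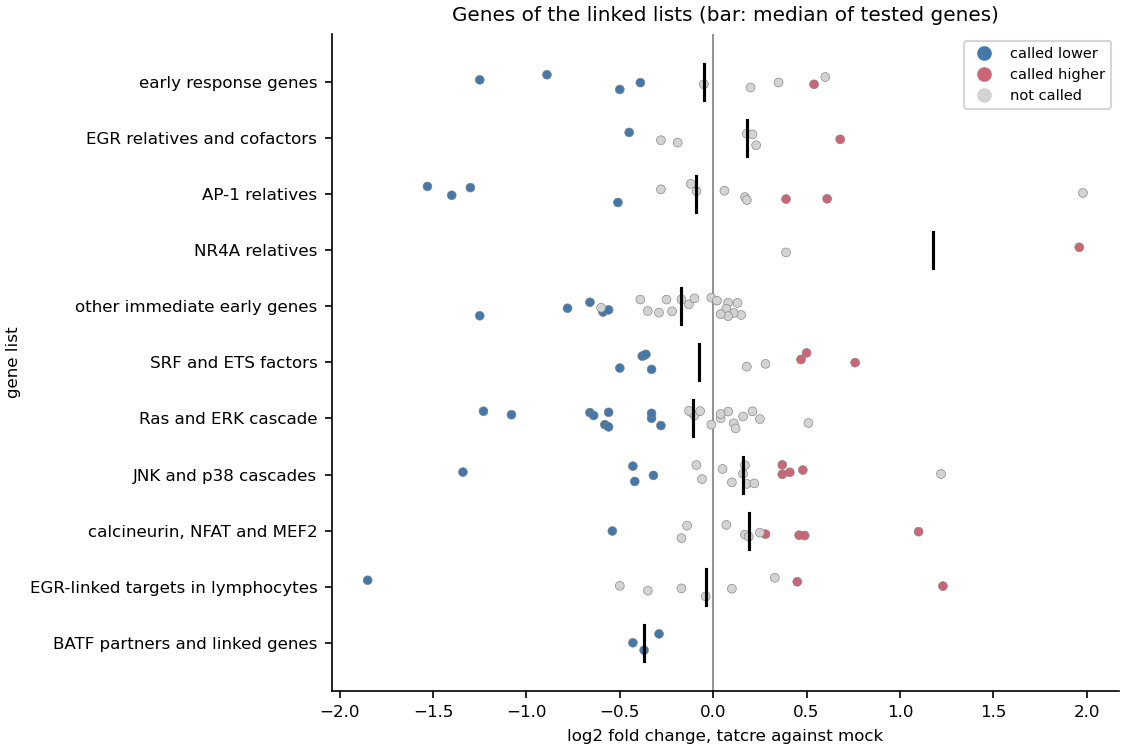
Log2 fold change, tatcre against mock (horizontal axis), of each tested gene in the early response group and the linked lists (vertical axis); blue was called lower, red higher, grey not called, and the black bar is the list's median. The Ras and ERK list, the other immediate early genes and the BATF partners and linked genes hold called falls and no called rise. Calls of both directions stand in the SRF, JNK and calcineurin lists.

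Over all tested genes 16.3% fell and 10.8% rose. Counted over all these lists without the early response genes, 34 of 119 tested genes fell and 17 rose. Without tatcre 2 there were 29 falls and 15 rises, without mock 3 there were 31 falls and 14 rises, and without mock 2 there were 28 falls and 11 rises. With library size alone as scaling, 26 fell and 28 rose, so the balance of directions over the lists differs with the scaling.

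For each called early response gene the 2 genes with the most similar profile were sought among 9078 genes of mean log2 CPM at least 2, as the smallest root mean square difference of centred log2 CPM over the 6 libraries. Closest to Egr2 were Dmac2 and Ncoa1 (0.0531 and 0.0705), to Egr3 Rogdi and Zfpm1 (0.0659 and 0.0899), and to Jun Ndrg3 and Brms1l (0.0268 and 0.0329). Closest to Junb were H13 and the kinase gene Mapkapk2 of the p38 list (0.0283 and 0.0375), and to Batf Ada and D8Ertd738e (0.0185 and 0.0248). No early response gene was among the 2 closest of another, but this measure grows with any difference in fold change. Whether these genes vary together within a group was not tested.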

How the data were processed

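RNA-seq of 3 mock and 3 tatcre libraries was used, and the 3 YY1 peak lists of the series were not used here. The authors deposited raw read counts per Ensembl gene. The submitters' processing notes name build mm10 and, as tools, HTSeq, TopHat2, Trimmomatic, SAMtools and MACS2. Versions, strand setting and gene annotation: not given in the sources used here. Libraries were prepared with a stranded kit, per the labels' protocols. Without a stated strand setting, reads of overlapping antisense genes cannot be assigned with certainty.

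Of 48795 IDs 48349 matched a symbol. The filterByExpr function of edgeR 4.0.16 (R 4.3.3) kept 15546 genes at a minimum count of 10 and a minimum total of 15. They were scaled by TMM and compared by the quasi-likelihood test over the 6 libraries, with Benjamini-Hochberg adjustment at 0.05. Intervals are 95%. The script was tested on simulated data. The floor behind a count of 0 was set at 3 counts, equal to 0.111 to 0.128 CPM, for counting error only. No replicates agreed within sampling noise (smallest chi-square per degree of freedom 7.5). Gene coordinates, lengths and promoter windows are from RefSeq on GRCm38.p6. Alternatives were other scalings (RLE, upper quartile, library size alone), DESeq2 1.42.0, no filter on low counts, a replicate block and leaving out each library.

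The 10 genes and the lists were chosen with earlier results of these data known. The rule for names took the 10 genes, up to 3 called genes per direction and list with the smallest p, all members of lists with at most 3 tested genes, and the 2 closest profiles of each called gene; some genes that the rule takes are not reported here. The planned levels per transcript length could be had only for Jun and Junb, which have no introns, and no second length was tried.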

Additional observations from a re-analysis of the deposited data

How the results depend on the processing

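Over 12 alternatives the 9 tested early response genes gave 108 values, of which 100 kept both direction and side of the threshold. Egr2, Egr3, Batf and Jun were called in the same direction in all 12. The exceptions were 3 lost calls of Junb, the call of Egr1 without tatcre 2, and changes of sign of genes that were never called: Jund was 0.02 with upper-quartile factors, 0.05 with library size alone and 0.17 without tatcre 2 (range -0.2 to 0.17), and Fos was -0.01 without tatcre 1 (range -0.01 to 0.85). The change of Map2k2, never called, was 0 with RLE factors and with DESeq2, 0.06 with upper-quartile factors and 0.09 with library size alone, and leaving out 1 library moved it between -0.13 and 0.07. Leaving out 1 library at a time gave 3 to 4 early response genes called lower and 1 to 2 called higher. The same gave 998 to 1681 rises and 1960 to 2391 falls over all genes, against 1679 and 2536. Over the linked lists it gave 11 to 16 rises and 28 to 32 falls, against 17 and 34. With library size alone 2614 genes and 28 list genes were called higher, and the median change over all genes moved on the log2 scale from 0.024 to 0.129. Upper-quartile factors gave 2229 rises and 2097 falls.

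Samples of equal number did not deviate together (correlations of deviations 0.06, -0.03 and 0.23), and mock 1 correlated best with tatcre 2 (0.25). With the replicate number as a block 4 early response genes were called lower and 1 higher, and over all genes 2108 fell and 1313 rose. Levels by another transcript length were not run, since no such lengths were used here. At this depth no statement can be made on Fosb.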

Other observations

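Cell type markers held a change in genes not described above. Thy1, a surface gene best known from T cells, was well expressed in these libraries and lower in tatcre cells (-0.97 ± 0.1 SE on the log2 scale, edgeR adjusted p = 4.92e-05). Lower too was the T cell kinase gene Lck (log2 fold change -0.72, edgeR adjusted p = 0.00952). Of the 8 T cell markers, 5 exceeded 3 counts in some library, and the summed list stood at 206 to 254 CPM in mock and 116 to 124 CPM in tatcre libraries, nearly all of it Thy1 and Lck. Cd3d had at most 1 count in any library. The macrophage marker Cd68 also fell (log2 fold change -1.02, edgeR adjusted p = 0.000327), with Cd14 and Fcgr1 at 0 counts. Some genes of the same lists went the other way at low counts. Cd3e had 3, 4 and 0 counts in mock and 8, 12 and 8 counts in tatcre libraries. Csf1r had 10, 8 and 1 counts in mock and 31, 31 and 9 counts in tatcre libraries, which overlap. Both had too few reads to be tested. The fall of Thy1, Lck and Cd68 is therefore not a shift of all markers of their lists. All genes named here were picked from the marker lists after their values were seen.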
